A study of Mus musculus with 12 samples.

Results

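The 35 genes described here encode proteins of autophagy and of the lysosome. They were chosen by name, with earlier results of these data known. Of them, 5 encode ATG8 proteins (Map1lc3a, Map1lc3b, Gabarap, Gabarapl1 and Gabarapl2), 7 the machinery that attaches ATG8 to membranes (Atg3, Atg4b, Atg5, Atg7, Atg10, Atg12 and Atg16l1) and 5 proteins of initiation and nucleation (Ulk1, Ulk2, Becn1, Pik3c3 and Wipi1). A further 4 encode cargo receptors (Sqstm1, Nbr1, Bnip3 and Bnip3l), 3 lysosomal membrane proteins (Lamp1, Lamp2 and Mcoln1), 7 lysosomal proteases (Ctsa, Ctsb, Ctsd, Ctsl, Ctsk, Ctsz and Lgmn) and 3 other lysosomal enzymes or activators (Gaa, Hexa and Psap), and the last is the transcription factor Tfeb. All 35 were on the array, all 35 passed the filter on dim probes, and each was well above background on all 12 arrays. They are 35 of the 15234 genes tested.

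RNA of the whole gastrocnemius, a calf muscle, of adult male CD1 mice was hybridised to 12 one-colour arrays, 3 in each of 4 groups: denervated Smad4KO muscle, control Smad4KO muscle, denervated WT muscle and control WT muscle. Denervation had lasted 14 days. Smad4 is the partner that receptor-activated Smads of the TGF-beta and BMP pathways bind, and the animals labelled Smad4KO are called KO below. The labels give neither the Cre driver nor the deleted part of the gene, no age beyond adult, and not whether denervated and control muscle of one replicate number came from one animal. The experiments of a condition used different animals, per the series' design, so the spread within a group is taken as spread between animals.

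In macroautophagy a membrane closes around cytoplasm, organelles or protein aggregates and fuses with the lysosome, where acid hydrolases digest the content. ULK kinases start the process, the Beclin 1 and class III phosphatidylinositol kinase complex marks the growing membrane, the ATG conjugation enzymes attach ATG8 proteins of the LC3 and GABARAP families to it, and receptors such as SQSTM1 and NBR1 bring in ubiquitinated cargo. In skeletal muscle the pathway takes part in protein loss when the nerve is cut or food is withheld, and muscle without it accumulates damaged mitochondria. TFEB is a basic helix-loop-helix factor that activates many lysosomal and autophagy genes through the palindrome CACGTG. FoxO factors induce autophagy genes in atrophying muscle.

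Levels are given on the log2 scale relative to the 75th percentile of each array's processed signal, so that a value of 0 is that percentile and negative values lie under it. They are not compared between genes, since probes differ in brightness for the same amount of RNA. Smad4 averaged 1.90 ± 0.14 (SD, n = 3) in KO denervated and 2.33 ± 0.12 in KO control muscle, against 3.32 ± 0.16 in WT denervated and 3.79 ± 0.22 in WT control muscle. The 12 fibre markers examined, among them Acta1, Ckm and Ttn, were well above background on every array. The arrays had 50.2% to 56.4% of probes well above background, no saturated spot, and correlations across genes of 0.974 to 0.985 within a group. They lay on 4 slides, none of which held all 4 groups. Whole muscle holds several cell types, and fewer cells of a type and less RNA per cell cannot be told apart.

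Promoter windows of 250 bases before to 50 after the transcription start came from a set of 32851 mouse windows (RefSeq, build GRCm38.p6). The set covered 10333 of the 15234 genes tested and 28 of the 35 genes, the latter with 34 windows in all. Map1lc3a, Atg12, Atg16l1, Becn1, Pik3c3, Bnip3l and Ctsb had no window in the set. CACGTG, which reads the same on both strands, occurred in 11 of the 34 windows (32.4%), compared with 7.15% of all windows of the set and 9.80% of the windows of genes tested here. The 11 genes were Atg3, Atg5, Atg7, Bnip3, Lamp1, Mcoln1, Ctsa, Ctsd, Ctsl, Lgmn and Gaa. The longer TCACGTGA, which contains it, occurred in 4 windows (11.8%), those of Atg3, Mcoln1, Ctsa and Ctsd. It occurred in 0.974% of all windows and 1.76% of the windows of genes tested here, and in 9 (8.49%) of the 106 windows of the further genes. The FoxO core GTAAACA, searched on both strands, was not found in the 34 windows, nor in the 106 of the further genes. Of all windows 3.65% held it, and of those of genes tested here 2.65%. At such shares few matches could occur in 34 or in 106 windows, so the absence tells little. A match is a description of the letters and not evidence of binding.

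The windows of 7 genes are shown because they carry the motif and differ in what their genes did after denervation: Ctsd, Ctsl and Lgmn rose in both genotypes, Ctsa fell in both, Lamp1 was called lower in KO muscle, and Mcoln1 and Atg3 were called in neither. They run 5′ to 3′ on the gene's strand, with CACGTG in capitals. Lamp1 had 4 copies, at 61, 45, 28 and 15 bases before the start, and Lgmn and Ctsa each have a second window without the motif.
Ctsd (chr7:142387778-142388077, minus strand): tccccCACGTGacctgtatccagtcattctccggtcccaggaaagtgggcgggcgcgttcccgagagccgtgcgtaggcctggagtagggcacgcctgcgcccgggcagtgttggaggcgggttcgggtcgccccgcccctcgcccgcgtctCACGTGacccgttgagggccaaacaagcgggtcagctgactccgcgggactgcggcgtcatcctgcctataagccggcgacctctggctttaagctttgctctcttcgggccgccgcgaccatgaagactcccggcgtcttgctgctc
Ctsl (chr13:64370471-64370770, minus strand): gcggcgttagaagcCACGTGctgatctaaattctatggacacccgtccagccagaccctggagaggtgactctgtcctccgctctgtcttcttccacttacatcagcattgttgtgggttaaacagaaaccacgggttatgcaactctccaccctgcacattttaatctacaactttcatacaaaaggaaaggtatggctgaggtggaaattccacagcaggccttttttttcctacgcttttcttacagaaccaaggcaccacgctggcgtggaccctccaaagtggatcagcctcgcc
Lgmn (chr12:102439043-102439342, minus strand): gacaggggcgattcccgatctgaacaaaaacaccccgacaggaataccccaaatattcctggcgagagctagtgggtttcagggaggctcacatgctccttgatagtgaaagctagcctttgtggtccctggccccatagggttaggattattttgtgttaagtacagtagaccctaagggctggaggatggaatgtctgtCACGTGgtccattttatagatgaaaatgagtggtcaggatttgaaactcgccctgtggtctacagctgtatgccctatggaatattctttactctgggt
Ctsa (chr2:164833523-164833822, plus strand): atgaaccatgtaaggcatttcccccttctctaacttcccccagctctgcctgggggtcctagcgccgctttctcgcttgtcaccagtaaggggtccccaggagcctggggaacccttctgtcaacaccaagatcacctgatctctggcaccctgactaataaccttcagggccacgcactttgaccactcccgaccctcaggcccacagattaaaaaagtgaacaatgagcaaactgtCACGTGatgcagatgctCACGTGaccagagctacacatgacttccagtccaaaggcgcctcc
Lamp1 (chr8:13158911-13159210, plus strand): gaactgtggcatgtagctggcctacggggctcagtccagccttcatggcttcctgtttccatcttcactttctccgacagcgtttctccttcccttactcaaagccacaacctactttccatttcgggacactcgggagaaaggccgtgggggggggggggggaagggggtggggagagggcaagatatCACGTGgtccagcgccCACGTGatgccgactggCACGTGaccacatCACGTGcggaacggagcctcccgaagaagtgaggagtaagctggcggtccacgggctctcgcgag
Mcoln1 (chr8:3500269-3500568, plus strand): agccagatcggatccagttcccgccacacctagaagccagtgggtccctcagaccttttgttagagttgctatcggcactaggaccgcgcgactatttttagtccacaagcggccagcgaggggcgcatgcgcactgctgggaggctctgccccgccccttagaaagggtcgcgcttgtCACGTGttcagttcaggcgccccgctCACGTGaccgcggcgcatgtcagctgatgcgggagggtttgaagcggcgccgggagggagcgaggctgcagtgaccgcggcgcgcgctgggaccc
Atg3 (chr16:45158579-45158878, plus strand): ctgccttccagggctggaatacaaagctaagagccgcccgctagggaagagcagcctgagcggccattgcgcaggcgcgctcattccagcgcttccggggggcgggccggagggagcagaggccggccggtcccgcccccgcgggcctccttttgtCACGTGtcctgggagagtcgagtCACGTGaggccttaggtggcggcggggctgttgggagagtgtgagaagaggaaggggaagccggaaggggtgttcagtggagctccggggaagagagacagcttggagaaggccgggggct

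Denervated and control muscle were compared to ask how these genes responded to 14 days of denervation when Smad4 was deleted and when it was present. Some of the 35 genes rose and others fell. Map1lc3a (LC3A), the protease genes Ctsl, Lgmn, Ctsd and Ctsz, the receptor gene Nbr1 and Gabarapl1 rose in both genotypes, by 0.51 to 1.79 on the log2 scale. Tfeb, the kinase gene Ulk2, Psap, Ctsa and Map1lc3b (LC3B) fell in both, by 0.48 to 2.34. These values are of the brightest probe of each gene. The other kept probe of Map1lc3b did not fall, with 0.12 in KO and 0.21 in WT muscle.

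In KO muscle 11 of the 35 genes were called higher and 7 lower by limma (adjusted p under 0.05), where 23.7% and 23.2% of all genes tested were called. The balance in KO muscle moved with the scaling: 15 were higher and 5 lower under quantile normalization, 14 and 5 with the authors' deposited matrix, and 8 and 8 with the array median. The calls over all 15234 genes moved too, from 3610 higher and 3536 lower in the fit reported. They were 4092 and 3447 under quantile normalization, 3942 and 3470 with the deposited matrix, and 3018 and 3767 with the array median. In WT muscle 11 of the 35 were called higher and 5 lower, where 18.7% and 20.6% of all genes were. The share called, 18 of 35 in KO muscle and 16 of 35 in WT muscle, is set against 46.9% and 39.2% of all genes. The median log2 difference over the 35 genes was 0.24 in KO and 0.21 in WT muscle, and over all genes it was 0.0030 and -0.020. Both genotypes had 7 of the genes called higher and 5 called lower, where 15.2% and 16.8% of all genes were called so. A further 4 genes were called higher in WT muscle only (Atg7, Atg16l1, Wipi1 and Hexa), 4 higher in KO muscle only (Atg5, Atg12, Lamp2 and Ctsk) and 2 lower in KO muscle only (Bnip3 and Lamp1), which does not show that the genotypes differed, since no test of the difference passed. The remaining 13 were called in neither. The denervated arrays of KO muscle lay above all KO control arrays for 12 of the 35 genes and under them for 9, where 28.5% and 28.2% of all genes were so separated, and in WT muscle for 13 and 9, where 25.9% and 27.1% were. With background corrected by normexp in place of the scanner's own correction, 20 of these 34 calls were lost: those kept were of Map1lc3a, Ulk2, Ctsa, Ctsl, Lgmn and Psap in both genotypes and of Tfeb and Bnip3 in KO muscle. With that correction limma called, over all genes, 1162 higher and 1514 lower in KO and 733 higher and 1153 lower in WT muscle.

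**Figure D1:**
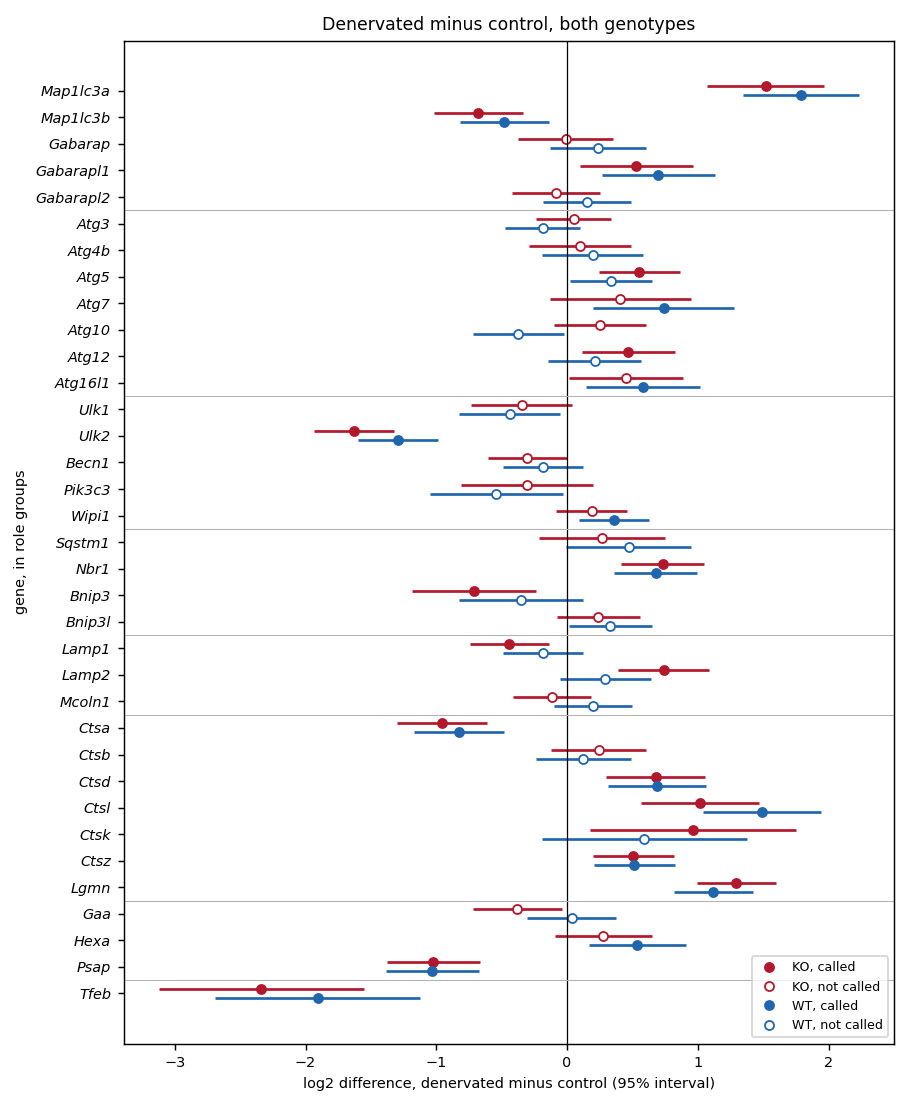
Log2 difference, denervated minus control (x axis), of the 35 genes (y axis, in role groups divided by lines) with 95% intervals of limma's fit, KO in red and WT in blue, 3 arrays against 3 each. Filled points passed an adjusted p of 0.05. Map1lc3a lies farthest to the right (1.52 in KO and 1.79 in WT) and Tfeb farthest to the left (-2.34 in KO and -1.91 in WT), and most genes have both points on the same side of 0.

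By the brightest probe of each, the ATG8 genes moved apart. Map1lc3a encodes LC3A, a membrane-anchored ATG8 protein. It had levels of 5.72, 5.33 and 5.67 in KO denervated muscle against 3.82, 4.29 and 4.06 in KO control muscle, and of 5.55, 6.10 and 5.69 in WT denervated against 3.96, 4.27 and 3.74 in WT control muscle. Every denervated array lay more than 1 log2 unit above every control array. The difference was 1.52 ± 0.20 (log2, SE; 2.87-fold, adjusted p = 0.000139) in KO and 1.79 ± 0.20 (3.46-fold, adjusted p = 5.86e-05) in WT muscle, and it passed under all 21 alternative settings. The probe lies at chr2:154969140-154969199 (mm8, plus strand).

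Map1lc3b encodes LC3B, the ATG8 protein most used as a marker of autophagosomes. Its levels were 5.23, 4.95 and 5.29 in KO denervated against 5.72, 6.10 and 5.70 in KO control muscle, and 5.23, 5.50 and 5.30 in WT denervated against 5.73, 5.84 and 5.90 in WT control muscle. All 6 denervated arrays lay under all 6 control arrays. It fell by 0.68 ± 0.16 in KO (adjusted p = 0.00422) and by 0.48 ± 0.16 in WT muscle (adjusted p = 0.0304). The other kept probe of the gene did not follow, with differences of 0.12 in KO and 0.21 in WT muscle, and with the mean of both probes neither genotype was called. The WT call was also lost when WT denervated replicate 1 or 3, or WT control replicate 2 or 3, was left out, with adjusted p between 0.0735 and 0.0931, with the replicate number as a block within genotype (0.0739) and with the slide as a block (0.207). Under quantile normalization (adjusted p = 0.0793), with the authors' deposited matrix (0.0849) and without the filter on dim probes (0.0696) the WT call was lost too.

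Gabarapl1 encodes a GABARAP-like protein and is a known FoxO target. Levels were 5.57, 5.94 and 5.47 in KO denervated against 5.25, 5.28 and 4.86 in KO control muscle, and 5.72, 6.20 and 5.73 in WT denervated against 5.18, 4.99 and 5.39 in WT control muscle. In both genotypes the denervated arrays lay above the controls with no overlap. It rose by 0.53 ± 0.20 in KO (adjusted p = 0.0450) and by 0.70 ± 0.20 in WT muscle (adjusted p = 0.0159), while its dimmer probe gave -0.11 in KO and 0.29 in WT. The KO call was lost without any 1 of KO control replicates 1, 2 and 3, KO denervated replicates 1 and 2, WT control replicate 1 and WT denervated replicate 3 (adjusted p between 0.0516 and 0.159), and the WT call without WT denervated replicate 2 (0.0657) or WT control replicate 2 (0.0624). With the slide as a block neither was called (adjusted p = 0.0699 in KO and 0.136 in WT).

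Gabarap and Gabarapl2, further members of the family, were called in neither genotype. Gabarap had levels of 3.57, 2.96 and 3.28 in KO denervated against 3.22, 3.42 and 3.20 in KO control muscle, and of 3.59, 3.42 and 3.54 in WT denervated against 3.10, 3.40 and 3.34 in WT control muscle. Gabarapl2 had 3.70, 3.91 and 3.63 in KO denervated against 4.01, 3.87 and 3.61 in KO control muscle, and 4.02, 4.06 and 3.88 in WT denervated against 3.73, 3.73 and 4.05 in WT control muscle. In WT muscle the denervated arrays of Gabarap lay just above the control arrays, and otherwise the groups of both genes overlapped. The 95% intervals of their differences ran from -0.42 to 0.36 in KO and from -0.19 to 0.60 in WT muscle over both genes. The dimmer probe of Gabarapl2 gave -0.25 in KO and -0.44 in WT muscle, against -0.084 in KO and 0.15 in WT muscle for the brighter one.

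**Figure D2:**
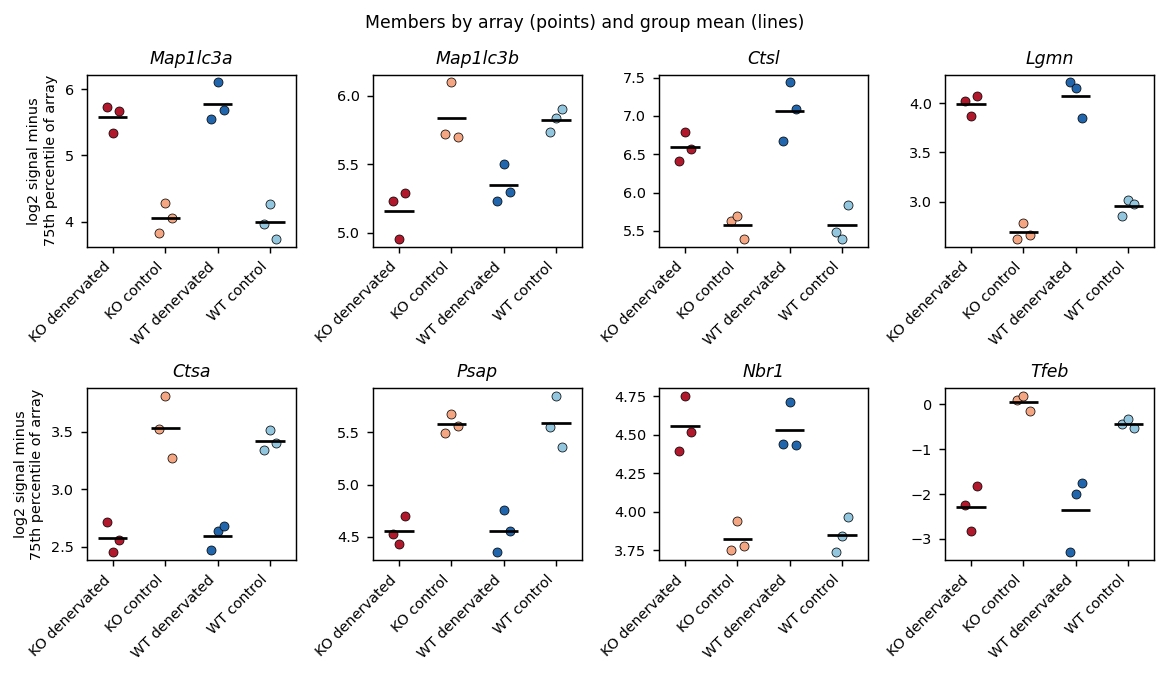
Levels on each array (points; y axis, log2 level relative to the 75th percentile of the array) and group means (lines) of 8 genes in KO denervated, KO control, WT denervated and WT control muscle, 3 arrays each; each panel has its own y range. Map1lc3a, Ctsl, Lgmn and Nbr1 lie higher and Map1lc3b, Ctsa, Psap and Tfeb lower on the denervated arrays of both genotypes, with no overlap between denervated and control arrays of a genotype.

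By the brightest probe, no gene of the conjugation machinery differed by more than 0.74. Of its 7 genes, 2 rose and none fell in each genotype, Atg5 and Atg12 in KO muscle and Atg7 and Atg16l1 in WT muscle. Of all genes, 23.7% rose and 23.2% fell in KO muscle, and 18.7% rose and 20.6% fell in WT muscle. With 7 genes, these counts do not set the group apart. ATG5 and ATG12 form the conjugate that, with ATG16L1, directs ATG8 proteins to the membrane. Atg5 averaged 0.97 ± 0.09 in KO denervated and 0.42 ± 0.12 in KO control muscle, against 0.87 ± 0.16 in WT denervated and 0.54 ± 0.15 in WT control muscle (differences of 0.55, adjusted p = 0.00799, and 0.34, adjusted p = 0.0811). With the authors' deposited matrix Atg5 was called higher in WT muscle too (0.35, adjusted p = 0.0452). Atg12 averaged 3.09 ± 0.23 in KO denervated and 2.62 ± 0.12 in KO control muscle, against 3.05 ± 0.21 in WT denervated and 2.84 ± 0.12 in WT control muscle (0.47, adjusted p = 0.0340, and 0.21, adjusted p = 0.328). Its call was lost without KO control replicate 1 (adjusted p = 0.0916), KO control replicate 3 (0.0878) or KO denervated replicate 2 (0.122), with the slide block (0.0869), and with the mean of its 3 probes (0.26, adjusted p = 0.197). Of its dimmer probes, 1 gave 0.11 in both genotypes and the other 0.19 in KO and -0.10 in WT muscle.

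Atg7 encodes the enzyme that activates both ATG12 and the ATG8 proteins. It averaged -1.92 ± 0.27 in KO denervated and -2.33 ± 0.27 in KO control muscle, against -1.70 ± 0.30 in WT denervated and -2.44 ± 0.42 in WT control muscle (0.41, adjusted p = 0.193, and 0.74, adjusted p = 0.0334). Atg16l1 averaged 2.36 ± 0.35 in KO denervated and 1.91 ± 0.26 in KO control muscle, against 2.36 ± 0.19 in WT denervated and 1.77 ± 0.11 in WT control muscle (0.45, adjusted p = 0.0829, and 0.58, adjusted p = 0.0377). Both WT calls rested on few arrays. That of Atg7 was lost when WT denervated replicate 2 or 3, or control replicate 1 or 3, was left out (adjusted p between 0.0802 and 0.126), and that of Atg16l1 when WT denervated replicate 2 or 3, or any WT control array, was left out (between 0.0548 and 0.125). With the replicate number as a block, Atg7 in WT muscle had an adjusted p of 0.0531, and with the block within genotype Atg16l1 in WT muscle had 0.0555. In KO muscle Atg16l1 was called higher under quantile normalization (0.52, adjusted p = 0.0283) and with the authors' deposited matrix (0.49, adjusted p = 0.0467). With the slide block it was called there too (0.47, adjusted p = 0.0485).

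ATG3 and ATG10 are conjugating enzymes, and ATG4B is a protease that primes and releases ATG8 proteins. Atg3 averaged 2.00 ± 0.19 in KO denervated and 1.95 ± 0.11 in KO control muscle, against 1.97 ± 0.03 in WT denervated and 2.15 ± 0.03 in WT control muscle. Atg10 averaged 0.67 ± 0.31 in KO denervated and 0.42 ± 0.08 in KO control muscle, against 0.21 ± 0.10 in WT denervated and 0.59 ± 0.09 in WT control muscle. Neither was called, and both had differences of opposite sign in the genotypes, 0.052 in KO and -0.19 in WT muscle for Atg3 and 0.25 in KO and -0.37 in WT muscle for the brighter probe of Atg10. The dimmer probe of Atg10 gave 0.81 in KO and 0.13 in WT muscle, and with the mean of both probes Atg10 was called higher in KO muscle (0.53, adjusted p = 0.0224). Atg4b averaged -0.26 ± 0.34 in KO denervated and -0.35 ± 0.09 in KO control muscle, against -0.0024 ± 0.20 in WT denervated and -0.20 ± 0.08 in WT control muscle. Its dimmer probe gave -1.07 in KO and -0.98 in WT muscle, opposite in sign to the brighter one.

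Among initiation and nucleation genes Ulk2, which encodes a kinase related to ULK1, was the gene that fell. Its levels were 0.15, -0.04 and 0.23 in KO denervated against 1.90, 1.65 and 1.68 in KO control muscle, and 0.64, 0.65 and 0.36 in WT denervated against 1.92, 1.77 and 1.85 in WT control muscle. Every denervated array lay at least 1 log2 unit under every control array. The difference was -1.63 ± 0.14 in KO (3.10-fold lower, adjusted p = 6.39e-06) and -1.29 ± 0.14 in WT muscle (2.45-fold lower, adjusted p = 3.93e-05). This probe lies at chr11:61592534-61592593 (mm8, minus strand), and the gene's other kept probes gave -0.61 and 0.73 in KO and -0.02 and 0.05 in WT muscle. The mean over its probes was still called in both genotypes, at -0.50 in KO and -0.42 in WT.

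Ulk1, the kinase that initiates autophagy in response to energy and nutrient signals, averaged 4.30 ± 0.28 in KO denervated and 4.64 ± 0.26 in KO control muscle, against 4.15 ± 0.13 in WT denervated and 4.59 ± 0.04 in WT control muscle. It was not called (adjusted p = 0.123 in KO and 0.0671 in WT; 0.0437 in WT with the replicate number as a block), although both of its probes had negative differences in both genotypes (-0.35 to -0.49). In WT muscle it was also called lower under quantile normalization (adjusted p = 0.0372), with the authors' deposited matrix (0.0300), with the mean of its probes (0.0229) and with the slide block (0.0338), and in KO muscle with the mean of its probes (0.0286). Becn1 encodes Beclin 1 and Pik3c3 the class III kinase bound to it. Becn1 averaged 2.22 ± 0.09 in KO denervated and 2.52 ± 0.21 in KO control muscle, against 2.43 ± 0.08 in WT denervated and 2.61 ± 0.10 in WT control muscle. Pik3c3 averaged -0.41 ± 0.33 in KO denervated and -0.10 ± 0.19 in KO control muscle, against -0.35 ± 0.25 in WT denervated and 0.19 ± 0.38 in WT control muscle. Neither was called, with all 4 differences negative (-0.18 to -0.54).

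Wipi1, which encodes a protein that binds phosphatidylinositol phosphate on forming autophagosomes, averaged 2.75 ± 0.03 in KO denervated and 2.56 ± 0.08 in KO control muscle, against 2.84 ± 0.12 in WT denervated and 2.48 ± 0.11 in WT control muscle. It was called higher in WT muscle (0.36 ± 0.12, adjusted p = 0.0370) and not in KO (0.19, adjusted p = 0.230). The call was lost when WT denervated replicate 1 or 2, any WT control array, KO denervated replicate 3 or KO control replicate 1 was left out, with adjusted p between 0.0502 and 0.121, and with the replicate number as a block within genotype (0.0666). Its dimmer probe gave -0.13 in KO and 0.31 in WT muscle.

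Of the cargo receptors, Nbr1 rose in both genotypes. NBR1 binds ubiquitinated cargo and ATG8 proteins. Levels were 4.39, 4.75 and 4.52 in KO denervated against 3.75, 3.94 and 3.78 in KO control muscle, and 4.44, 4.71 and 4.44 in WT denervated against 3.74, 3.85 and 3.97 in WT control muscle. All 6 denervated arrays lay above all 6 control arrays. It rose by 0.73 ± 0.15 in KO (adjusted p = 0.00181) and 0.68 ± 0.15 in WT muscle (adjusted p = 0.00367), and all 3 of its probes were higher in both genotypes, by 0.41 to 0.88.

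Sqstm1 encodes a receptor for ubiquitinated cargo that is itself degraded by autophagy. It averaged 6.87 ± 0.20 in KO denervated and 6.60 ± 0.40 in KO control muscle, against 7.13 ± 0.22 in WT denervated and 6.66 ± 0.24 in WT control muscle. It was not called (0.27, adjusted p = 0.336 in KO; 0.47, adjusted p = 0.110 in WT). Under quantile normalization both genotypes were called, at 0.73 in KO (adjusted p = 0.00288) and 0.64 in WT (0.00765), and with the authors' deposited matrix likewise, at 0.79 and 0.69. Its call therefore depended on the scaling.

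Bnip3 and Bnip3l encode receptors that mark mitochondria for autophagy. Bnip3 averaged 4.72 ± 0.09 in KO denervated and 5.44 ± 0.20 in KO control muscle, against 5.05 ± 0.36 in WT denervated and 5.40 ± 0.35 in WT control muscle (-0.71, adjusted p = 0.0185, and -0.35, adjusted p = 0.219). The KO call was lost without KO control replicate 2 (adjusted p = 0.0548), KO control replicate 3 (0.0608) or KO denervated replicate 1 (0.0548), and under quantile normalization (0.0607). Bnip3l averaged 3.68 ± 0.10 in KO denervated and 3.44 ± 0.03 in KO control muscle, against 3.93 ± 0.18 in WT denervated and 3.60 ± 0.20 in WT control muscle, and was not called. Its dimmer probe was lower, at -0.79 in KO and -1.0 in WT.

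Of the 3 lysosomal membrane genes, 1 rose and 1 fell in KO muscle, and none was called in WT muscle. Of all genes, 46.9% were called in either direction in KO and 39.2% in WT muscle. Lamp2, which encodes a membrane glycoprotein needed for fusion with autophagosomes, averaged 3.89 ± 0.06 in KO denervated and 3.15 ± 0.14 in KO control muscle, against 3.62 ± 0.19 in WT denervated and 3.33 ± 0.24 in WT control muscle (0.74, adjusted p = 0.00279, and 0.29, adjusted p = 0.163). All 3 of its probes were higher in both genotypes, by 0.21 to 1.37, and with their mean Lamp2 was called higher in WT muscle too (0.49, adjusted p = 0.0205). Lamp1, its abundant relative, averaged 5.29 ± 0.14 in KO denervated and 5.73 ± 0.18 in KO control muscle, against 5.53 ± 0.08 in WT denervated and 5.72 ± 0.08 in WT control muscle (-0.44, adjusted p = 0.0213, and -0.18, adjusted p = 0.314). The Lamp1 call was lost without KO control replicate 1 (0.0505) or 2 (0.0800) or KO denervated replicate 1 (0.0503) or 3 (0.0804), and under quantile normalization (-0.20, adjusted p = 0.210). Mcoln1, which encodes a calcium channel of the lysosome, averaged 3.23 ± 0.07 in KO denervated and 3.35 ± 0.11 in KO control muscle, against 3.67 ± 0.20 in WT denervated and 3.47 ± 0.03 in WT control muscle. It was called in neither genotype, and its dimmer probe gave 1.02 in KO and 0.72 in WT muscle, against -0.12 in KO and 0.20 in WT muscle for the brighter one.

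Of the 7 lysosomal proteases, 5 rose and 1 fell in KO muscle, and 4 rose and 1 fell in WT muscle, where 46.9% and 39.2% of all genes were called in either direction. Ctsl encodes cathepsin L, a cysteine protease long known to be induced in muscle atrophy. Its levels were 6.41, 6.79 and 6.57 in KO denervated against 5.63, 5.70 and 5.39 in KO control muscle, and 6.68, 7.44 and 7.09 in WT denervated against 5.49, 5.40 and 5.84 in WT control muscle. All 6 denervated arrays lay above all 6 control arrays. It rose by 1.02 ± 0.21 in KO (2.02-fold, adjusted p = 0.00209) and by 1.49 ± 0.21 in WT muscle (2.81-fold, adjusted p = 0.000239).

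Lgmn encodes legumain, which cleaves after asparagine and processes other cathepsins. Its levels were 4.02, 3.87 and 4.07 in KO denervated against 2.62, 2.79 and 2.67 in KO control muscle, and 4.21, 4.15 and 3.85 in WT denervated against 2.86, 3.02 and 2.98 in WT control muscle. The groups of denervated and control arrays were far apart in both genotypes. It rose by 1.30 ± 0.14 in KO (2.45-fold, adjusted p = 2.73e-05) and by 1.12 ± 0.14 in WT muscle (2.17-fold, adjusted p = 0.000103).

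Ctsd encodes cathepsin D, the main aspartic protease of the lysosome. Its levels were 6.62, 6.88 and 6.97 in KO denervated against 5.98, 6.30 and 6.15 in KO control muscle, and 6.49, 6.89 and 6.92 in WT denervated against 5.84, 6.21 and 6.18 in WT control muscle. No denervated array overlapped a control array. It rose by 0.68 ± 0.17 in KO (adjusted p = 0.00762) and by 0.69 ± 0.17 in WT muscle (adjusted p = 0.00878). Ctsz encodes cathepsin Z, a carboxypeptidase. Its levels were 3.11, 3.51 and 3.44 in KO denervated against 2.93, 2.92 and 2.69 in KO control muscle, and 3.16, 3.26 and 3.33 in WT denervated against 2.69, 2.76 and 2.76 in WT control muscle. Here too no denervated array overlapped a control array, and the differences were 0.51 ± 0.14 (adjusted p = 0.0123) in KO and 0.52 ± 0.14 (adjusted p = 0.0137) in WT muscle, where the Ctsz call was lost with the slide as a block (0.0614). The second probes of Ctsd and Ctsz were also higher in both genotypes, by 0.35 to 0.48.

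Ctsa was the protease gene that fell. It encodes protective protein cathepsin A, a carboxypeptidase that stabilises beta-galactosidase and neuraminidase. Levels were 2.72, 2.45 and 2.56 in KO denervated against 3.52, 3.81 and 3.27 in KO control muscle, and 2.47, 2.64 and 2.68 in WT denervated against 3.34, 3.52 and 3.41 in WT control muscle. All denervated arrays lay under all control arrays. It fell by 0.96 ± 0.16 in KO (adjusted p = 0.000528) and by 0.83 ± 0.16 in WT muscle (adjusted p = 0.00183), and its 3 probes all had negative differences in both genotypes (-0.17 to -0.96). One of its promoter windows, like that of Ctsd, holds CACGTG in 2 copies, so that copies of the motif stood in windows of genes that moved in opposite directions.

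Ctsk encodes cathepsin K, a protease best known from osteoclasts. It averaged 0.07 ± 0.10 in KO denervated and -0.89 ± 0.87 in KO control muscle, against -0.70 ± 0.21 in WT denervated and -1.29 ± 0.42 in WT control muscle. It was called higher in KO muscle (0.96 ± 0.36, adjusted p = 0.0458) and not in WT (0.59, adjusted p = 0.215). KO control replicate 1 stood at 0.09, within the range of the denervated arrays, and the other KO control arrays at -1.22 and -1.54. The call was lost without any 1 of 10 arrays, with adjusted p between 0.0514 and 0.176: KO control replicates 2 and 3, KO denervated replicates 1, 2 and 3, WT control replicates 1 and 2 and WT denervated replicates 1, 2 and 3. Ctsb, which encodes cathepsin B, averaged 5.62 ± 0.09 in KO denervated and 5.38 ± 0.19 in KO control muscle, against 5.58 ± 0.22 in WT denervated and 5.46 ± 0.22 in WT control muscle, and was called in neither. Its dimmer probe was lower, at -1.15 in KO and -0.69 in WT, and with the mean of both probes the KO difference turned to -0.45 (adjusted p = 0.0340). By the brighter probe Ctsb was called higher in KO muscle under quantile normalization (0.52, adjusted p = 0.00528). With the authors' deposited matrix it was likewise called higher there (0.52, adjusted p = 0.00486), so its call and sign depended on the scaling and the probe.

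Markers of several other cell types also moved with denervation. Of 18 macrophage markers, 17 were tested. In KO muscle 9 rose and none fell, where 23.7% of all genes rose, and in WT muscle 4 rose (Cd68, Aif1, Fcgr1 and Mpeg1) and none fell, where 18.7% of all genes rose. Their summed level, in multiples of the array's 75th percentile, lay between 61.2 and 89.0 in KO denervated and 29.6 and 68.7 in KO control muscle, which overlap, and between 53.9 and 63.2 in WT denervated and 35.6 and 53.6 in WT control muscle. The highest KO control value was that of replicate 1, the array on which Ctsk was high. That array also had the highest fibroblast marker sum of KO control muscle, 337, against 190 in replicate 2 and 212 in replicate 3. No tested macrophage marker was at background throughout, and Cx3cr1 was too dim to be tested. Fibre markers summed to between 2126 and 2882 in KO denervated and 3936 and 4108 in KO control muscle, and between 2544 and 3736 in WT denervated and 3110 and 3856 in WT control muscle, with 8 of 12 called lower in KO and 1 of 12 in WT muscle. Of all genes, 23.2% were called lower in KO and 20.6% in WT muscle. These shares also stand beside the counts of falls that follow. Endothelial markers fell for 8 of 10 genes in KO and 7 of 10 in WT muscle, and summed to between 22.7 and 27.3 in KO denervated and 41.5 and 42.3 in KO control muscle, and between 17.03 and 26.1 in WT denervated and 35.7 and 43.3 in WT control muscle. Schwann cell markers fell for 6 of 8 genes in KO and 5 of 8 in WT muscle, and summed to between 6.62 and 7.56 in KO denervated and 16.3 and 33.4 in KO control muscle, and between 4.94 and 6.90 in WT denervated and 18.0 and 29.0 in WT control muscle. Erythrocyte markers fell for all 3 tested of 5 in both genotypes, and summed to between 5.22 and 12.2 in KO denervated and 18.5 and 39.4 in KO control muscle, and between 11.3 and 24.2 in WT denervated and 34.8 and 51.2 in WT control muscle. Granulocyte markers fell for 3 of 4 tested in KO and for none in WT muscle, and summed to between 3.00 and 4.77 in KO denervated and 1.12 and 20.6 in KO control muscle, and between 5.16 and 22.7 in WT denervated and 11.3 and 31.0 in WT control muscle. T and B cell markers fell for 2 of 4 tested in each genotype. Fibroblast markers fell for 2 of 11 in WT and for none in KO muscle, and none rose. Of the 4 adipocyte markers tested, none was called in either genotype. The part of any of these cell types in the values of the 35 genes was not tested.

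Of the other lysosomal genes Psap fell in both genotypes. It encodes prosaposin, the precursor of the saposins that help sphingolipid hydrolases reach their substrates. Levels were 4.53, 4.43 and 4.70 in KO denervated against 5.49, 5.68 and 5.56 in KO control muscle, and 4.35, 4.75 and 4.55 in WT denervated against 5.55, 5.85 and 5.36 in WT control muscle. Denervated and control arrays were well apart. The differences were -1.02 ± 0.16 in KO (2.03-fold lower, adjusted p = 0.000433) and -1.03 ± 0.16 in WT muscle (2.04-fold lower, adjusted p = 0.000559), and the second probe gave -1.41 in KO and -1.16 in WT.

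Hexa encodes the alpha subunit of hexosaminidase A. It averaged 3.77 ± 0.08 in KO denervated and 3.49 ± 0.28 in KO control muscle, against 3.99 ± 0.02 in WT denervated and 3.45 ± 0.24 in WT control muscle, and was called higher in WT muscle (0.54 ± 0.17, adjusted p = 0.0257) and not in KO (0.28, adjusted p = 0.194). The WT call was lost when any WT denervated array, or WT control replicate 1 or 2, was left out (adjusted p between 0.0536 and 0.0992). In KO muscle Hexa was called higher under quantile normalization (0.44, adjusted p = 0.0292) and with the authors' deposited matrix (0.40, adjusted p = 0.0374). Gaa, the acid alpha-glucosidase that breaks down lysosomal glycogen and whose loss causes Pompe disease, averaged 4.43 ± 0.12 in KO denervated and 4.81 ± 0.19 in KO control muscle, against 4.62 ± 0.07 in WT denervated and 4.59 ± 0.22 in WT control muscle. It was not called, with differences of -0.38 in KO (adjusted p = 0.0641) and 0.036 in WT muscle (0.874).

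Tfeb, the gene of the lysosomal transcription factor, had the largest fall of the 35. Its levels were -2.24, -2.82 and -1.83 in KO denervated against 0.10, 0.19 and -0.14 in KO control muscle, and -3.30, -2.01 and -1.74 in WT denervated against -0.45, -0.34 and -0.53 in WT control muscle. The gap between denervated and control arrays exceeded 1 log2 unit in both genotypes, although the denervated arrays themselves were spread, WT denervated replicate 1 lying lowest. The difference was -2.34 ± 0.36 in KO (5.07-fold lower, adjusted p = 0.000335) and -1.91 ± 0.36 in WT muscle (3.75-fold lower, adjusted p = 0.00168). The probe lies at chr17:47252863-47252922 (mm8, plus strand) and was well above background on all 12 arrays. Under the normexp background the KO call held and the WT call did not (-0.72, adjusted p = 0.215). Of its relatives and of the FoxO genes, 4 of 7 could be tested: Foxo1 rose by 1.40 ± 0.14 in KO and 1.12 ± 0.14 in WT muscle, and Mitf, Tfe3 and Zkscan3 were called in neither. Tfec, Foxo3 and Foxo4 were too dim.

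**Figure D3:**
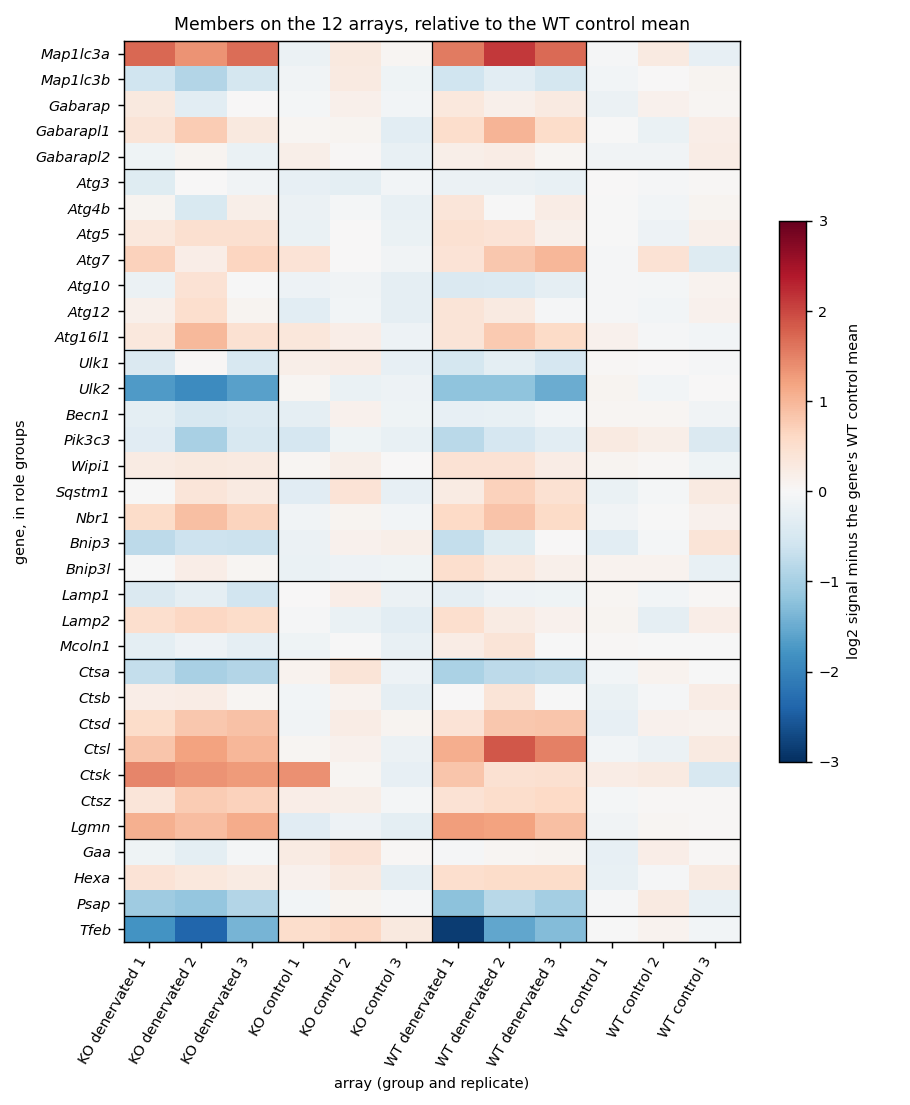
Level of each of the 35 genes (rows, in role groups) on each of the 12 arrays (columns: KO denervated, KO control, WT denervated, WT control), as the log2 difference from the gene's mean over the 3 WT control arrays; red is higher and blue lower. Map1lc3a, Ctsl and Lgmn are red and Ulk2, Ctsa, Psap and Tfeb blue on all 6 denervated arrays, and Ctsk on KO control replicate 1 (level 0.09) lies within the range of the KO denervated arrays.

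Arrays that shared a slide were also part of the fit. Where denervated and control arrays of a gene do not overlap, any pair of them has the sign of the call. Among the called genes only Atg7 in WT and Ctsk in KO muscle had overlapping arrays. The signs on shared slides are therefore no test of a slide effect. On slide 1, with denervated and control WT muscle on 1 array each, all 16 called genes had the sign of the WT comparison. In KO muscle 17 of 18 did so on slide 2 and 18 of 18 on slide 4, the exception being Ctsk (-0.04 on slide 2). With slide as a block in the fit, 10 of the 34 calls no longer passed (Gabarapl1 in both genotypes, Atg12 and Ctsk in KO, and Map1lc3b, Atg7, Atg16l1, Wipi1, Ctsz and Hexa in WT muscle), and 5 of the 35 genes were called higher in WT muscle in place of 11. Over all 15234 genes, that block called 2108 higher in WT muscle in place of 2848.

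The comparison of KO with WT muscle asks whether deletion of Smad4 altered these genes, with and without the nerve. In denervated muscle limma called none of the 35, where it called 2.19% of all genes (0.958% higher and 1.23% lower), and 4 of the 35 had an unadjusted p under 0.05, as did 2487 of the 15234 genes tested, a larger share. The 4 were Mcoln1, Ulk2, Atg10 and Ctsl. By its brighter probe Mcoln1 had 3.18, 3.31 and 3.21 in KO denervated against 3.71, 3.86 and 3.45 in WT denervated muscle, a difference of -0.44 (95% interval -0.74 to -0.14, adjusted p = 0.136). Ulk2 differed by -0.44 (-0.74 to -0.13, adjusted p = 0.145), Atg10 by 0.45 (0.10 to 0.80, adjusted p = 0.187) and Ctsl by -0.48 (-0.93 to -0.02, adjusted p = 0.281). With the mean of its probes Mcoln1 differed by -0.13 and Ulk2 by -0.12. The KO arrays of Mcoln1 and Ulk2 all lay under the WT arrays and those of Atg10 above, and those of Ctsl overlapped. Arrays did not overlap for 2 genes higher and 6 lower in KO, where 10.2% and 11.5% of all genes had such a separation.

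All 5 ATG8 genes had a lower mean in KO denervated than in WT denervated muscle (differences of -0.19 to -0.24), and the interval of each included 0. Tfeb differed by 0.056 (-0.73 to 0.84) and Map1lc3a by -0.21 (-0.65 to 0.24). Nbr1 differed by 0.026 (-0.29 to 0.34) and Lgmn by -0.082 (-0.38 to 0.22). With 3 arrays a group, intervals of this width do not show that KO and WT muscle had equal levels.

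In control muscle none of the 35 was called (adjusted p = 1.00 for each), where 0.00656% of all genes was, and none had an unadjusted p under 0.05. Arrays did not overlap for 1 gene higher and 3 lower in KO, where 3.71% and 4.84% of all genes had such a separation. The differences ran from -0.29 (Pik3c3) to 0.49 (Tfeb, 95% interval -0.30 to 1.27). The interaction, which asks whether denervation acted differently in KO and WT muscle, called none of the 35, where it called 0.184% of all genes (0.0985% higher and 0.0853% lower). One gene of the 35, Atg10, had an unadjusted p under 0.05, as did 1437 of the 15234 genes tested, also a larger share (0.62 ± 0.23, adjusted p = 0.414). For the 10 genes called in 1 genotype only, the differences of the differences lay between -0.36 (Bnip3) and 0.45 (Lamp2, 95% interval -0.04 to 0.94), and none passed.

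**Figure D4:**
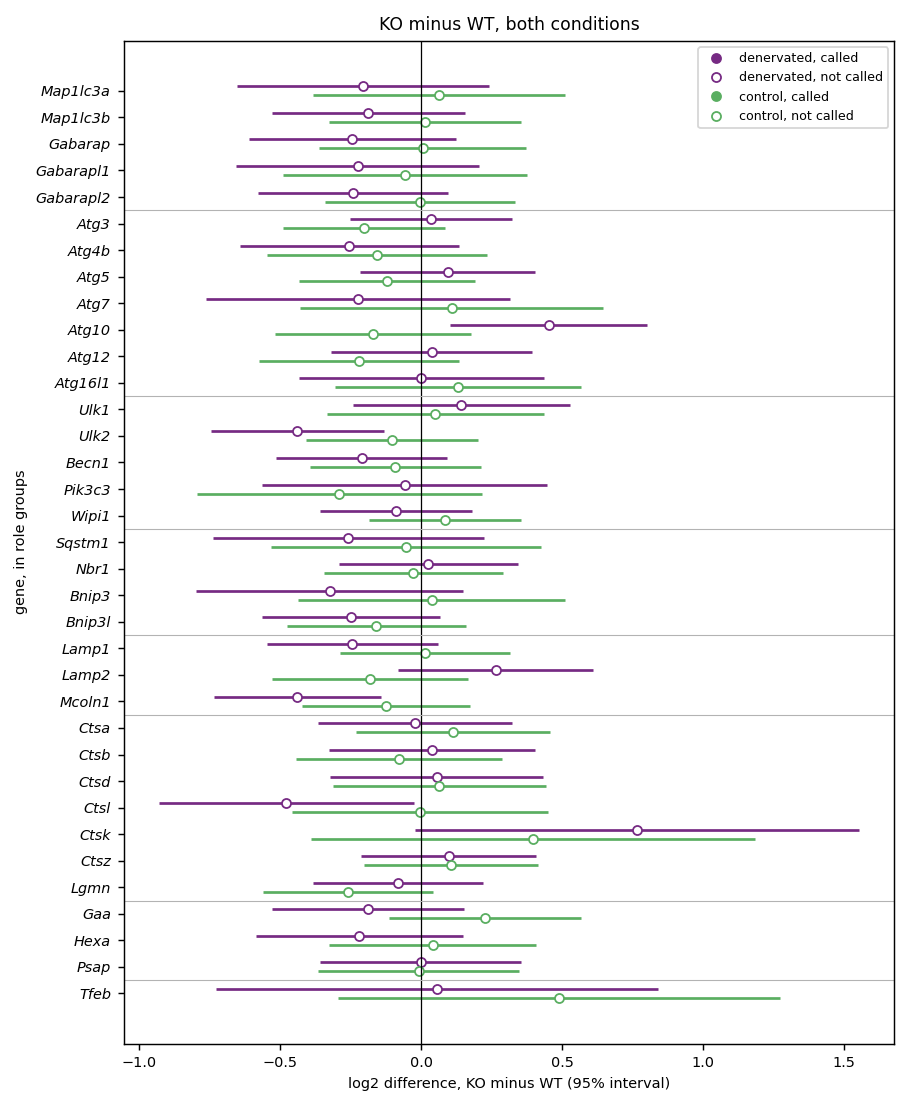
Log2 difference, KO minus WT (x axis), of the 35 genes (y axis, in role groups) with 95% intervals, in denervated muscle (purple) and control muscle (green), 3 arrays against 3 each. No point is filled, since none passed an adjusted p of 0.05; Mcoln1, Ulk2, Atg10 and Ctsl are the genes whose interval in denervated muscle leaves out 0.

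Of 119 further genes of autophagy and the lysosome, 115 were tested. In KO muscle 20 rose and 20 fell, and in WT muscle 20 rose and 15 fell, with medians of -0.013 and -0.042. These are smaller shares than the 23.7% higher and 23.2% lower in KO and the 18.7% higher and 20.6% lower in WT muscle over all genes tested, so the counts set these genes apart in neither direction. None was called between KO and WT muscle, denervated or control. The same shares over all genes stand beside the counts of each list that follows.

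Of 36 tested genes of the autophagy machinery, 7 rose and 8 fell in KO and 4 rose and 5 fell in WT muscle. Rab7, the small GTPase of late endosomes and lysosomes, fell by 1.52 ± 0.16 in KO (adjusted p = 2.67e-05) and by 1.14 ± 0.16 in WT muscle (adjusted p = 0.000263). Atg4d, a protease related to ATG4B, fell by 1.28 ± 0.21 in KO and 0.99 ± 0.21 in WT. Uvrag, a partner of Beclin 1, rose by 0.67 ± 0.12 in KO and 0.69 ± 0.12 in WT, while its other probe gave -0.26 in KO and 0.091 in WT muscle.

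Of 36 lysosomal enzymes and cofactors, 4 rose and 5 fell in KO and 5 rose and 7 fell in WT muscle. Galns, a sulfatase of keratan and chondroitin sulfate, rose by 1.77 ± 0.26 in KO (adjusted p = 0.000258) and 2.06 ± 0.26 in WT muscle (adjusted p = 0.000126). Gusb, beta-glucuronidase, rose by 0.62 ± 0.13 in KO and 0.52 ± 0.13 in WT. Aga, which cleaves sugar from asparagine, fell by 0.84 ± 0.15 in KO and 1.17 ± 0.15 in WT, and Smpd1, acid sphingomyelinase, by 0.91 ± 0.17 in KO and 0.71 ± 0.17 in WT.

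Of 23 lysosomal membrane and trafficking genes, 4 rose and 3 fell in KO and 5 rose and 2 fell in WT muscle. Igf2r, the receptor that carries mannose-6-phosphate enzymes to the lysosome, rose by 1.30 ± 0.15 in KO and 1.37 ± 0.15 in WT, while Gnptg, a subunit of the enzyme that makes that tag, fell by 0.80 ± 0.15 in KO and 0.90 ± 0.15 in WT. Slc17a5, the sialic acid exporter, rose by 1.12 ± 0.12 in KO and 0.74 ± 0.12 in WT, and Laptm4b fell by 0.99 ± 0.14 in KO and 0.79 ± 0.14 in WT.

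Of the 16 genes of the vacuolar ATPase, the proton pump that acidifies the lysosome, 4 rose and 4 fell in KO and 5 rose and 1 fell in WT muscle. Of all genes, 23.7% rose and 23.2% fell in KO, and 18.7% rose and 20.6% fell in WT muscle. With 16 genes, these counts do not set the pump apart. Atp6v1a, the catalytic subunit, rose by 1.52 ± 0.15 in KO (adjusted p = 1.65e-05) and 1.36 ± 0.15 in WT muscle (adjusted p = 4.81e-05). The accessory gene Atp6ap2 rose by 1.43 ± 0.16 in KO and 1.08 ± 0.16 in WT, Atp6v1e1 by 1.20 ± 0.16 in KO and 0.66 ± 0.16 in WT, and Atp6v1h by 1.00 ± 0.17 in KO and 0.74 ± 0.17 in WT. Falls were called for Atp6v0a2 in both genotypes (-0.73 in KO and -0.39 in WT). Over the 16 genes the differences ran from -0.94 to 1.52 in KO and from -0.39 to 1.36 in WT muscle. The fall of Atp6v0a2 was therefore not the largest of the list in KO muscle.

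**Figure D5:**
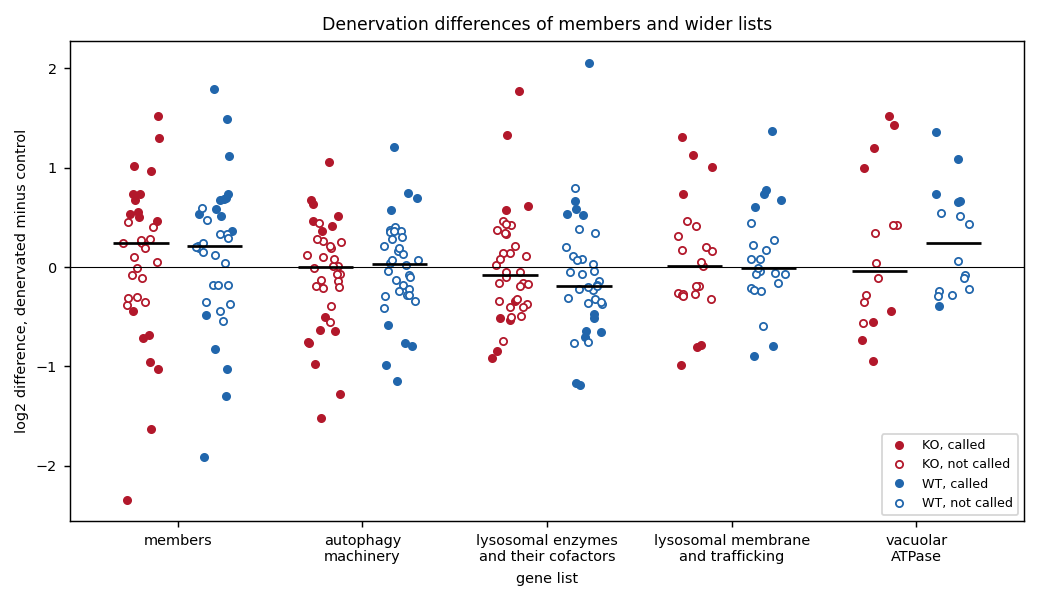
Log2 differences, denervated minus control (y axis), of the 35 genes (first column, marked members) and of the tested genes of 4 further lists (x axis), KO in red and WT in blue; filled points passed an adjusted p of 0.05 and bars are medians. In every list, called genes lie on both sides of 0, and the medians lie between -0.19 and 0.24.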

How the data were processed

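Each of 12 muscles gave 1 Agilent mouse array with the Cy3 dye alone. The deposited scanner output holds an intensity for each spot, which Feature Extraction 10.7.3.1 (version per the file headers, 10.5.1.1 in the submitters' processing notes) had background-subtracted and detrended. In the deposited matrix, which also holds intensity, the quartiles of the arrays are nearly equal; how the authors made it is not given in the sources used here. Probe positions are on mm8.

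Control spots were left out, outlier-flagged spots set missing, and spots of a probe averaged. The log2 processed signal minus the array's 75th percentile was used. Of 41174 probes, 24375 were named by accession, 6301 by symbol and 2426 by synonym through a RefSeq table (GRCm38.p6), and 8072 kept the file's name. Probes passed the filter (22535) if all 3 arrays of any group had them well above background, and the brightest kept probe stood for its gene (15234 genes, 234 of them with a missing value). The 75th percentile lay between 219 and 364 intensity units and the lowest signal well above background between 10.7 and 16.5; the number of arrays limits the precision.

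limma 3.58.1 (R 4.3.3; lmFit and eBayes, two-sided) was fitted to the 4 group means over all 12 arrays, with no covariate. Benjamini-Hochberg adjustment ran over all genes within each of 5 comparisons: denervated against control in KO and in WT, KO against WT in denervated and in control muscle, and the interaction. A gene was called at an adjusted p under 0.05. The fit was tested on simulated data. No exact permutation test was run, since 3 arrays against 3 cannot reach 0.05. Python 3.11.15 read the files. The alternatives were quantile normalization, the array median, normexp with an offset of 50, the deposited matrix, no filter, the mean of a gene's probes, slide or replicate number as a block, and each array left out.

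The 35 genes and all lists were chosen with earlier results of these data known. By the naming rule every one of the 35 is given, with each array's value for genes called in both genotypes, Tfeb and the ATG8 family. Up to 4 genes of each further list are named, those with the smallest adjusted p in a denervation comparison; Atp6v0a2 was named after its values were seen. One gene that this rule names is not reported here.

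Same-numbered denervated and control arrays of WT muscle deviated together from their group means (r = 0.30, 0.11 and 0.23 across genes), so the blocked value is given beside WT results where it changes a call, although the reported fit has no block; in KO muscle r was 0.090, 0.014 and 0.17. Between same-numbered KO and WT arrays r was 0.20, 0.30 and 0.0055 in denervated muscle and 0.068, 0.16 and -0.10 in control muscle. Some same-numbered arrays also shared a slide, such as those of WT replicate 1 (slide 1) and of KO replicate 3 (slide 4). The labels do not say what the numbers share, and the cause of these correlations was not tested.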

Additional observations from a re-analysis of the deposited data

How the results depend on the processing

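Of the 34 denervation calls among the 35 genes, 13 were kept under each of the 21 alternatives: Map1lc3a, Ulk2, Ctsa, Ctsl, Lgmn and Psap in both genotypes, and Tfeb in KO muscle. The normexp background lost 20 calls, the slide block 10, no filter 8, and the other settings 1 to 6 each; the cause was not tested. Counts of genes higher in WT muscle, 11 in the fit reported, were 3 under normexp, 7 without the filter, 5 with the slide block, and 6 to 11 with an array left out (6 without WT denervated replicate 2). Genes lower in WT muscle were 3 under normexp and 4 to 7 with an array left out, against 5. Over all genes, 733 were higher in WT muscle under normexp, 2334 of 27597 without the filter and 2108 with the slide block, against 2848. Lower in WT muscle were 1153 under normexp, against 3131. With an array left out, 2219 to 2920 of all genes were higher in WT muscle and 2436 to 3199 lower. In KO muscle, genes of the 35 higher were 15 under quantile normalization, 14 with the deposited matrix, 8 with the array median, 3 under normexp and 8 to 11 with an array left out, against 11, and genes lower were 5 under quantile normalization, with the deposited matrix and under normexp, and 5 to 8 with an array left out, against 7. Over all genes, 2974 to 3634 were higher in KO muscle and 2907 to 3589 lower with an array left out. The fit reported had 3610 and 3536, and normexp 1162 and 1514. One value reversed: Ctsb in KO muscle, -0.45 with the mean of its probes. No KO against WT or interaction count left 0 under any alternative run.

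With the replicate number as a block, the calls were 10 higher and 6 lower in WT muscle (Atg7 lost at 0.0531, Ulk1 gained at 0.0437) and 11 higher and 7 lower in KO muscle. A block within genotype, chosen after seeing the data, gave 9 and 4 in WT and 9 and 7 in KO muscle. Over all genes the replicate block called 2838 higher and 3151 lower in WT and 3667 and 3582 in KO muscle. The block within genotype called 2735 and 3055 of all genes in WT and 3609 and 3510 in KO muscle. Smad4's denervation difference missed the threshold in WT muscle under the array median (-0.47), normexp (-0.61), no filter (-0.47) and the block within genotype (-0.47), with -0.56 to -0.35 when an array was left out. In KO muscle it did so under normexp (-0.48), no filter (-0.43), the slide block (-0.42), the replicate block (-0.43) and the block within genotype (-0.43), with -0.50 to -0.36. Smad4 in KO against WT missed it under normexp in denervated muscle (-1.23), and in control muscle under normexp (-1.36), no filter (-1.46), the slide block (-1.53) and the replicate block (-1.46), with -1.55 to -1.34 when an array was left out.

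Over all genes the share of calls that were higher was 50.5% in KO denervation in the fit reported, against 34.5% without the filter, where the median of all genes moved by -0.33 in KO and -0.19 in WT muscle. Of the calls between KO and WT denervated muscle, 43.8% were higher, against 32.2% under the array median and 68% under normexp, and normexp called 17 higher and 8 lower there against 146 and 187 in the fit reported; for the interaction it called 0 of all genes, against 15 higher and 13 lower. Ulk1 gained a call under 6 alternatives in WT and 3 in KO muscle, and calls gained under at least 1 alternative, beside Sqstm1, were also of Atg10, Atg16l1, Atg5, Ctsb, Gaa, Hexa, Lamp2 and Pik3c3.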
